A study of Mus musculus with 12 samples.

Results

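The circadian clock genes of mouse liver were followed in 12 pools of liver RNA. They were 10 genes, taken as every probe set that the platform annotation gives exactly 1 symbol among Arntl, Npas2, Clock, Cry1 and Nfil3 (here the Arntl phase) or among Dbp, Per1, Per2, Tef and Nr1d1 (here the Dbp and Per phase). These 10 of 12393 annotated genes were read by 16 of the 22626 probe sets tested.

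The liver clock is a loop of transcription factors. BMAL1, the product of Arntl, pairs with CLOCK or NPAS2 and activates genes that carry an E-box, among them the Per and Cry repressors, Nr1d1 and Dbp. The PER and CRY proteins then block that pair, while REV-ERBα, the product of Nr1d1, represses Arntl, Npas2 and Nfil3 through ROR elements, so that in mouse liver Arntl peaks when Dbp is low. DBP and TEF activate D-box genes and NFIL3 (E4BP4) represses them.

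All mice were male, aged 6 to 8 weeks, labelled C57BL/6 and adapted for 14 days to a soya-free powdered RM3 diet. The 4 groups, each of 3 pools of 3 mice, were POR-null on the quercetin diet, POR-null on the control diet, wild type on the quercetin diet and wild type on the control diet. POR-null mice lack cytochrome P450 reductase, which passes electrons to the microsomal P450 enzymes, and the labels do not say in which cells the gene was deleted. Quercetin, a plant flavonol, was given from day 15 at 7 mg per mouse (6.2 g per kg of diet), and whole livers were taken after 24 h from mice kept under a daily cycle of light and dark. The time of day at which each pool was taken is not given in the sources used here, so time of day and group cannot be told apart.

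The values are log2 expression from Affymetrix 430A arrays, 1 array per pool, with array medians between 5.93 and 5.99 and correlations between arrays of 1 group between 0.988 and 0.993. Por was not analysed here, and the genotypes are those of the labels. The 5 measured hepatocyte markers had means between 12.4 and 13.6, at or above the 99.7th percentile of all probe sets. Markers of exocrine pancreas varied most among the lists of other cell types. Their mean deviation from the 12-array mean was 2.40 in POR-null quercetin pool 3 and -1.25 in wild type quercetin pool 1. In bulk RNA, fewer cells of a type and less RNA per cell cannot be told apart.

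Promoters of 9 of the 10 genes were matched in the RefSeq table of build GRCm38.p6, which gave 14 promoters, since Arntl, Per1 and Tef had 2 each and Clock had 3. Per2 is named only. Each promoter was taken from 250 bases before to 50 bases after the annotated start. It was searched on both strands for the E-box CACGTG, the D-box as TTATGTAA or TTACGTAA, and the ROR element as TAGGTCA or TGGGTCA. Motifs outside this window were not sought, so a promoter without a match may carry the motif farther away. The E-box was present in 4 of the 14 promoters (28.6%), of Per1, Tef and Cry1, against 7.15% of all 32851 promoters. The ROR element was present in 2 of 14 (14.3%), of Arntl and Nfil3, against 6.45%. The D-box was present in 0 of 14, against 1.06%. No promoter held 2 of these motifs. The stretches around the matches are shown with the motif in capitals, because the loop is known to act through motifs of these kinds. The 3 with an E-box in the Per1 and Tef promoters lie at chr11:69098756-69098815, chr15:81802519-81802578 and chr15:81811249-81811308, all on the plus strand, with the motif beginning 166, 127 and 138 bases before the annotated start. The Cry1 stretch is chr10:85185082-85185141 on the minus strand, with the motif 60 bases before the start. The Arntl stretch is chr7:113207530-113207558 on the plus strand, with the ROR element 31 bases after the start. The Nfil3 stretch is chr13:52981018-52981078 on the minus strand, with the ROR element on the opposite strand, so printed as its reverse complement, 12 bases before the start. A match is a description of the letters and not evidence of binding in these livers.
Per1: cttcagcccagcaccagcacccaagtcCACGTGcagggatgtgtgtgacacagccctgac
Tef, first start: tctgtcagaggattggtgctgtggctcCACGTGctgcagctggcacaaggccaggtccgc
Tef, second start: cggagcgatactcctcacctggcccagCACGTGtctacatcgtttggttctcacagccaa
Cry1: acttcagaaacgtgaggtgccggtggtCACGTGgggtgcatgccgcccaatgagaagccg
Arntl: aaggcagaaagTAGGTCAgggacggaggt
Nfil3: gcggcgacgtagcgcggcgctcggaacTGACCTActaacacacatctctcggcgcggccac

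Taken over the 4 groups together, pools of 1 group differed more in Dbp than in nearly all other genes on the array, most of all in wild type quercetin livers. On the control diet 15 of the 16 clock probe sets lay lower in POR-null than in wild type livers, none past the test. Over all genes 46.1% lay higher in that comparison, and several of the 16 probe sets read the same gene. Per1 alone passed, and it was lower in POR-null livers when both diets were averaged. Quercetin moved no member past the test in either genotype. In wild type livers Per1 and Per2 lay lower with quercetin in all 3 pools and Dbp in 2 of the 3, without passing, and Nr1d1 differed by -0.03 ± 0.13. Levels are given gene by gene, since levels of different probe sets on an array are not comparable.

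**Figure D1:**
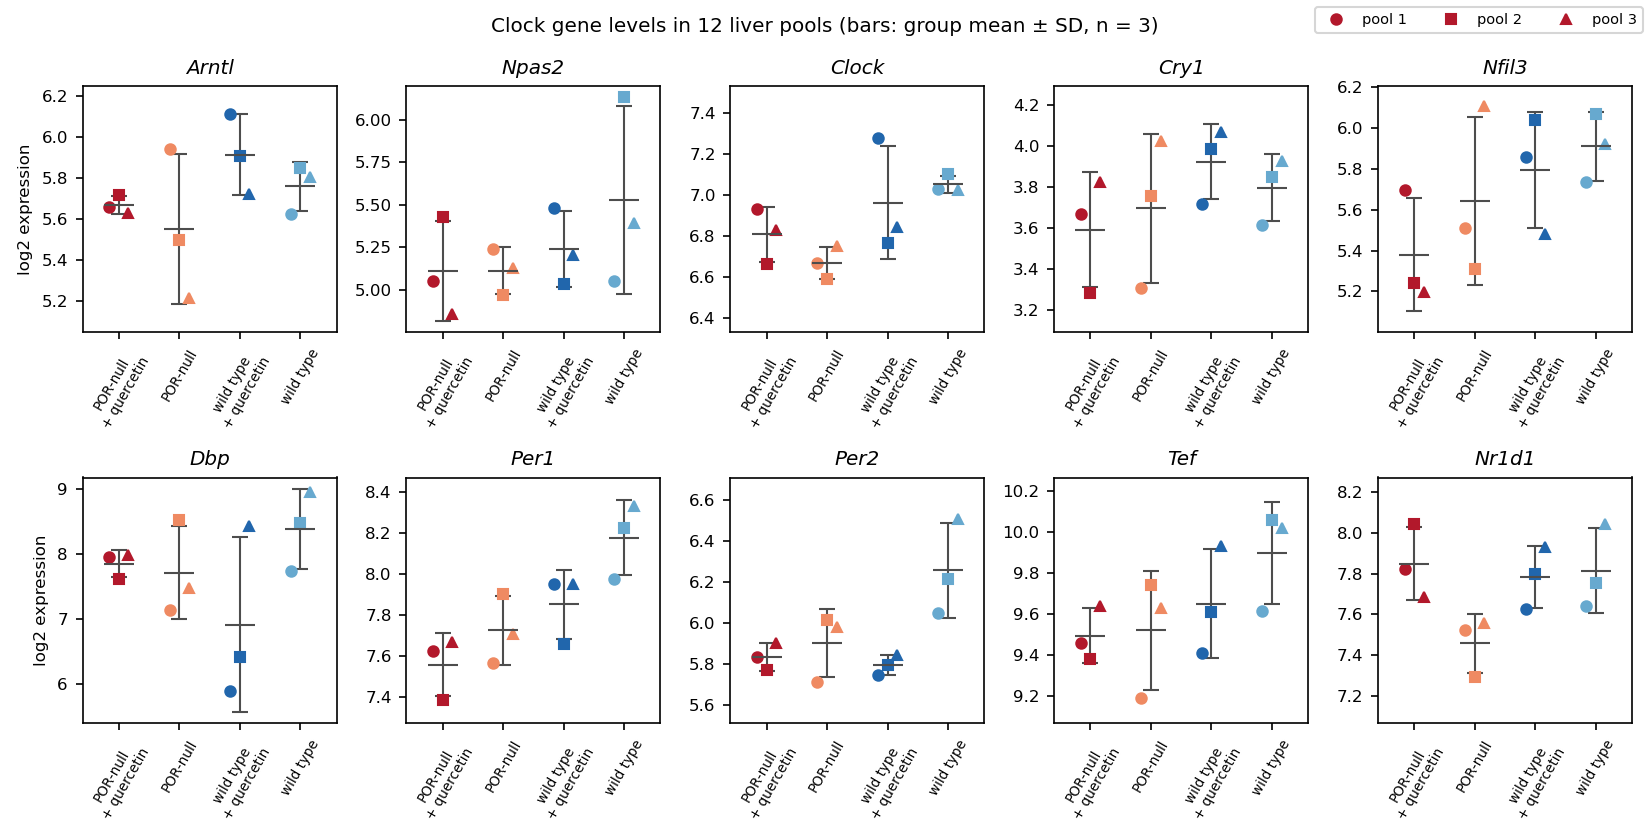
Log2 expression of the 10 clock genes (1 probe set per gene, the one with the highest mean) in each pool of 3 mice, by group; symbols are pools, and bars are the group mean ± SD (n = 3). Dbp in wild type quercetin livers spanned 5.89 to 8.43, and all 3 Per1 values of wild type control livers lay above those of POR-null control livers.

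Among the activators, Arntl had log2 values of 5.66, 5.71 and 5.63 in POR-null quercetin pools 1 to 3, 5.94, 5.50 and 5.21 in POR-null control pools, 6.11, 5.91 and 5.72 in wild type quercetin pools, and 5.62, 5.85 and 5.81 in wild type control pools. Both diets gave overlapping ranges within each genotype, and on the quercetin diet every POR-null pool lay just below every wild type pool. That genotype difference on quercetin was -0.25 ± 0.16 (SE), with an adjusted p of 0.449 in limma. Averaged over diets it was -0.23 ± 0.11 (adjusted p = 0.232). Quercetin moved Arntl by 0.12 ± 0.16 in POR-null and 0.15 ± 0.16 in wild type livers, with adjusted p = 0.898 and 0.814.

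Clock, the partner of BMAL1, read 6.93, 6.67 and 6.83 in POR-null quercetin pools, 6.67, 6.59 and 6.75 in POR-null control pools, 7.28, 6.77 and 6.85 in wild type quercetin pools, and 7.03, 7.10 and 7.03 in wild type control pools on the probe set with the higher mean. On the control diet all POR-null pools lay below all wild type pools. The difference of -0.38 ± 0.12 (SE) had an unadjusted p of 0.00779 and an adjusted p of 0.15 in limma. The second Clock probe set did not follow the first across the 12 arrays (r = 0.0017), and its control-diet difference was 0.11 ± 0.18. Npas2, the alternative partner of BMAL1, ranged over the 12 pools by 2.43-fold, from 4.86 in a POR-null quercetin pool to 6.13 in wild type control pool 2. Its groups overlapped in every comparison on the brighter probe set.

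The repressor Cry1 was the dimmest member, near the 7.69th percentile of all probe sets, and lay between 3.28 and 4.07. Its largest group difference was -0.33 ± 0.17 for POR-null against wild type on quercetin (adjusted p = 0.335). Nfil3, the D-box repressor, had 5.70, 5.24 and 5.20 in POR-null quercetin pools, 5.51, 5.31 and 6.10 in POR-null control pools, 5.86, 6.04 and 5.48 in wild type quercetin pools, and 5.74, 6.07 and 5.92 in wild type control pools. The highest single value belonged to POR-null control pool 3, and the groups overlapped. Averaged over diets, Nfil3 differed by -0.34 ± 0.14 (SE) in POR-null livers, with adjusted p = 0.16 in limma. Without POR-null control pool 3 that difference was -0.46 with adjusted p = 0.0322.

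In the Dbp and Per phase, the repressor Per1 had 7.62, 7.38 and 7.67 in POR-null quercetin pools, 7.57, 7.90 and 7.71 in POR-null control pools, 7.95, 7.66 and 7.95 in wild type quercetin pools, and 7.97, 8.23 and 8.33 in wild type control pools. The wild type control pools held the 3 highest values of all 12. Averaged over diets Per1 fell in POR-null livers by 0.37 ± 0.09 on the log2 scale (SE; 1.30-fold; adjusted p = 0.0205 in limma), the only call among the 16 probe sets. That call was lost without POR-null control pool 1 (adjusted p = 0.0588), POR-null quercetin pool 2 (0.0571) or wild type quercetin pool 1 (0.0535). On single diets the difference was -0.29 ± 0.13 on quercetin and -0.45 ± 0.13 on the control diet, with adjusted p = 0.254 and 0.0993. The control-diet value passed without wild type control pool 1, at -0.55 and adjusted p = 0.0351.

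Per2, the partner of Per1 in the repressor complex, read 5.83, 5.77 and 5.90 in POR-null quercetin pools, 5.71, 6.01 and 5.98 in POR-null control pools, 5.75, 5.80 and 5.84 in wild type quercetin pools, and 6.05, 6.21 and 6.51 in wild type control pools on the brighter probe set. The 3 wild type control pools lay above the 9 others. Quercetin in wild type livers gave a difference of -0.46 ± 0.12 (SE; 95% interval -0.72 to -0.20), the lowest p among the members in that comparison (unadjusted 0.00183, adjusted 0.361 in limma). In POR-null livers quercetin gave -0.07 ± 0.12. The dimmer Per2 probe set gave -0.18 ± 0.14 in wild type livers, and the pair correlated at r = 0.578 over 12 arrays.

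Dbp, an activator of D-box genes and among the strongest rhythmic transcripts of liver, had 7.96, 7.62 and 7.98 in POR-null quercetin pools, 7.14, 8.52 and 7.48 in POR-null control pools, 5.89, 6.42 and 8.43 in wild type quercetin pools, and 7.74, 8.47 and 8.96 in wild type control pools. Wild type quercetin pools 1 and 2 were the lowest of all 12, while pool 3 of the same group stood within the range of the wild type control pools. The second Dbp probe set gave the same order within wild type quercetin, at 6.29, 6.40 and 7.91, and followed the first at r = 0.975 over 12 arrays. The quercetin difference in wild type livers was -1.47 ± 0.51 (SE; 2.78-fold lower; 95% interval -2.56 to -0.39) and -1.01 ± 0.34 on the second probe set. Neither passed in limma, with adjusted p = 0.47 and 0.465. Without wild type quercetin pool 3 the first difference was -2.23 (adjusted p = 0.17), and without pool 1 of that group it was -0.96 (adjusted p = 0.702). In POR-null livers the quercetin difference was 0.14 ± 0.51. Beside the 3 wild type quercetin values of Dbp, the mean deviation of the pancreas markers was -1.25, -0.86 and 0.79, and that of the macrophage markers was -0.24, -0.22 and 0.53. Both lists were thus higher in pool 3, the pool with high Dbp. Outside that group the lists did not always run with Dbp. Wild type control pool 3, with the highest Dbp, had -0.78 for pancreas and -0.27 for macrophage markers. Wild type control pool 2, with Dbp at 8.47, had 1.01 and -0.38. The part of either list in the Dbp values was not tested.

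Tef, a close relative of Dbp, read 9.46, 9.38 and 9.64 in POR-null quercetin pools, 9.19, 9.74 and 9.63 in POR-null control pools, 9.41, 9.61 and 9.93 in wild type quercetin pools, and 9.61, 10.06 and 10.02 in wild type control pools. Ranges overlapped in every comparison. The control-diet genotype difference was -0.38 ± 0.16 (SE), with adjusted p = 0.274 in limma, and the other 2 Tef probe sets gave -0.08 and -0.09. Nr1d1, the repressor of Arntl, had 7.82, 8.04 and 7.68 in POR-null quercetin pools, 7.53, 7.29 and 7.56 in POR-null control pools, 7.63, 7.80 and 7.93 in wild type quercetin pools, and 7.64, 7.76 and 8.04 in wild type control pools. The POR-null control pools were the 3 lowest of all 12. Quercetin gave a difference of 0.39 ± 0.13 in POR-null livers, against -0.03 ± 0.13 in wild type livers, and the interaction of 0.42 ± 0.18 had an unadjusted p of 0.0365 and an adjusted p of 0.803.

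**Figure D2:**
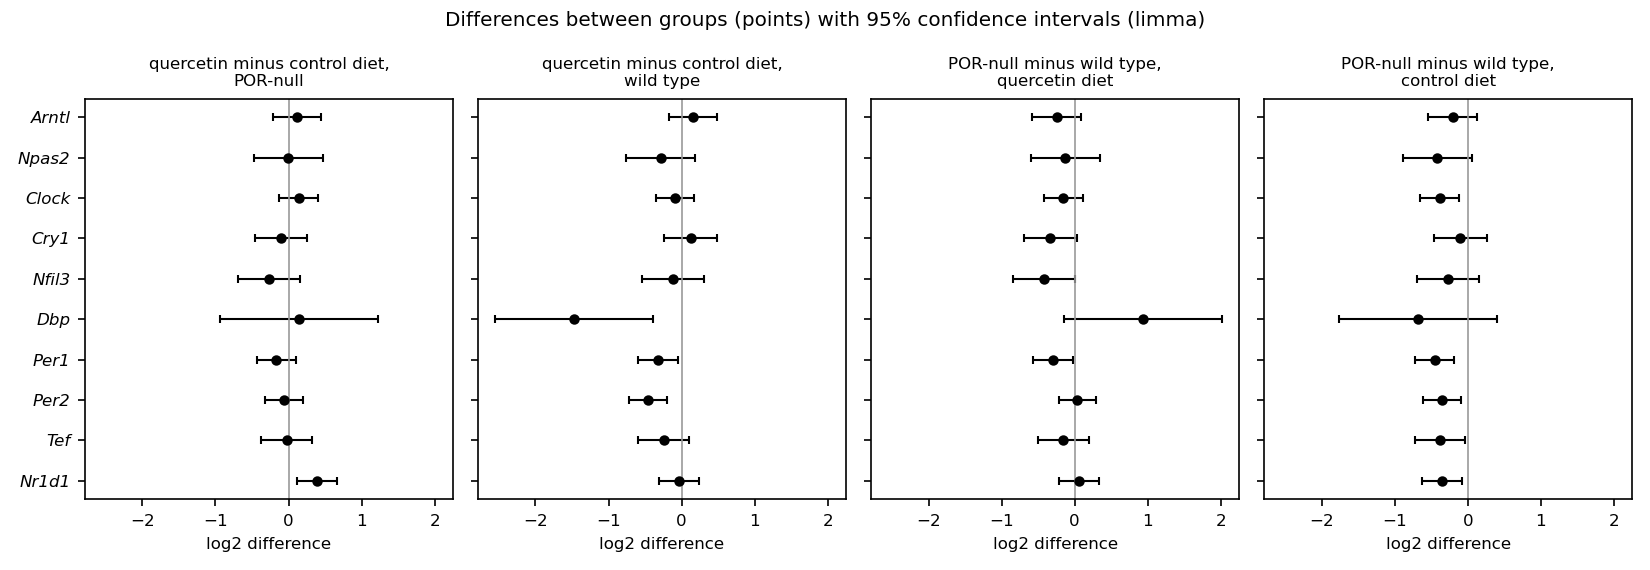
Differences of group means in log2 units (points) with 95% confidence intervals from the limma fit, for 1 probe set of each clock gene, in 4 comparisons. Intervals for Dbp are the widest, from -2.56 to -0.39 for quercetin in wild type livers, and most points for POR-null against wild type on the control diet lie below 0.

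Counted by comparison, quercetin in POR-null livers moved 0 of 16 clock probe sets past an adjusted p of 0.05 in limma, where 0% of all probe sets were called. At an unadjusted p under 0.05 there was 1, Nr1d1, against 6.99% of all probe sets, and the count was 0 without POR-null quercetin pool 2 and 3 without POR-null control pool 1. The groups did not overlap for 2 of 16 (14.1% of all), Nr1d1 higher and the dimmer Npas2 probe set lower. The members' median was -0.04, against -0.01 over all probe sets. Both counts were near the background share.

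Quercetin in wild type livers also moved 0 of 16 past the test, again with 0% called over all probe sets. At an unadjusted p under 0.05 there were 4, all lower and all of the Dbp and Per phase, namely both Dbp probe sets, Per1 and Per2, against 4.32% lower over all probe sets. The groups did not overlap for Per1 and Per2, 2 of 16 lower, against 6.09%. The count of 4 was 2 without wild type control pool 3 or wild type quercetin pool 2, and 6 without wild type control pool 1. All 9 probe sets of the Dbp and Per phase lay below 0, with a median of -0.25, and 4 of 7 of the Arntl phase, with a median of -0.09. Over all genes 48.6% lay above 0. Averaged over genotypes, 0 of 16 passed (0% of all), and 3 had an unadjusted p under 0.05, all lower: Per1, Per2 and the dimmer Npas2 probe set (4.65% of all lower).

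The interaction, which asks whether quercetin acted differently in POR-null and wild type livers, called 0 of 16 in limma (0% of all). At an unadjusted p under 0.05 there were 4, all above 0 and all in the Dbp and Per phase, both of Dbp with Per2 and Nr1d1, against 3.1% above 0 over all probe sets. That count was 0 without wild type control pool 3 or wild type quercetin pool 2, and 1 without wild type quercetin pool 1, POR-null control pool 1 or POR-null quercetin pool 1 or 3. For Dbp the interaction was 1.62 ± 0.72 (95% interval 0.09 to 3.14), and for Per2 it was 0.39 ± 0.17. The adjusted p was 0.803 for each. On the dimmer Per2 probe set the interaction was 0.02 ± 0.20. The control pools enter both this and the single comparisons, so their values are not separate evidence.

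POR-null against wild type on the quercetin diet called 0 of 16, where 2.33% of all probe sets were called. There were 2 with an unadjusted p under 0.05 (17% of all), Per1 lower and Dbp higher by 0.79 ± 0.34 on its dimmer probe set. Without wild type quercetin pool 3 both Dbp probe sets were called higher in POR-null livers, with the dimmer at 1.31 and adjusted p = 0.0178. Arntl did not overlap and was lower, 1 of 16, against 13% lower over all probe sets. All 7 probe sets of the Arntl phase lay below 0, and 5 of 9 of the Dbp and Per phase. Over all genes 43.7% lay above 0.

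POR-null against wild type on the control diet also called 0 of 16, where 1.16% of all were called. There were 5 with an unadjusted p under 0.05, all lower (7.94% of all lower): Per1, Clock, Per2, Nr1d1 and Tef. The first 4 of these did not overlap, against 9.24% lower over all probe sets. Each of the 5 was the brighter or only probe set of its gene. The dimmer probe sets gave 0.11 for Clock, -0.05 for Per2, and -0.09 and -0.08 for Tef. Without wild type control pool 3 the count was 2, and with the mean of the probe sets of each gene it was 2 of 10. In all, 15 of the 16 differences lay below 0, with a median of -0.31, against -0.01 over all probe sets. Over all genes 46.1% lay above 0. The median was -0.21 in the Arntl phase and -0.35 in the Dbp and Per phase, so the members of both phases lay on the same side.

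Averaged over diets, 1 of 16 was called, Per1, against 7.58% of all probe sets called in either direction and 2.7% called lower. A single call among 16 is near that background. Those with an unadjusted p under 0.05 were 4, all lower: Per1, Clock, Nfil3 and Tef (11.6% of all lower), and the count was 2 without wild type control pool 2 and 7 without wild type control pool 1. With the mean of the probe sets of each gene it was 2 of 10. The dimmer probe sets gave 0.03 for Clock, and -0.09 and -0.08 for Tef. In the same contrast 2 of 7 measured macrophage markers were called higher, C1qa by 0.39 ± 0.11 (adjusted p = 0.0451) and Cd5l by 0.70 ± 0.19 (adjusted p = 0.0371). Over all probe sets 4.88% were called higher. Of the 7 markers 5 lay above 0 and the others did not. The mean deviation of the 7 from the 12-array mean ran from 0.06 to 0.23 in POR-null quercetin pools, -0.02 to 0.22 in POR-null control pools, -0.24 to 0.53 in wild type quercetin pools and -0.38 to -0.07 in wild type control pools. Of these 7 markers 5 had means above the median of all values, and the part of these cells in the clock values was not tested.

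Pools of 1 group differed in clock genes more than in most genes. The SD between pools within groups was 0.83 for the brighter Dbp probe set and 0.55 for the other, at the 99.8th and 99.5th percentiles of all probe sets. Of the 16, 7 stood in the top 10%, 5 in the top 5% and 2 in the top 1%, and their median SD was 0.21, against 0.14 over all probe sets. The pools of wild type quercetin livers spanned a 5.82-fold range of Dbp. In POR-null quercetin livers Dbp lay between 7.62 and 7.98 (SD 0.20), so its wide spread was not shared by every group. Among the other genes the widest ranges within 1 group were 2.12-fold for Npas2 in wild type control livers and 1.73-fold for Nfil3 in POR-null control livers. The spread was not shared by all members: Per1, Nr1d1, the brighter Clock probe set and the brighter Per2 probe set lay between the 59.8th and 74.1st percentiles. Of the 16 probe sets, 9 had means below the median of all values (5.96), among them every probe set of Arntl, Npas2, Cry1, Nfil3 and Per2.

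**Figure D3:**
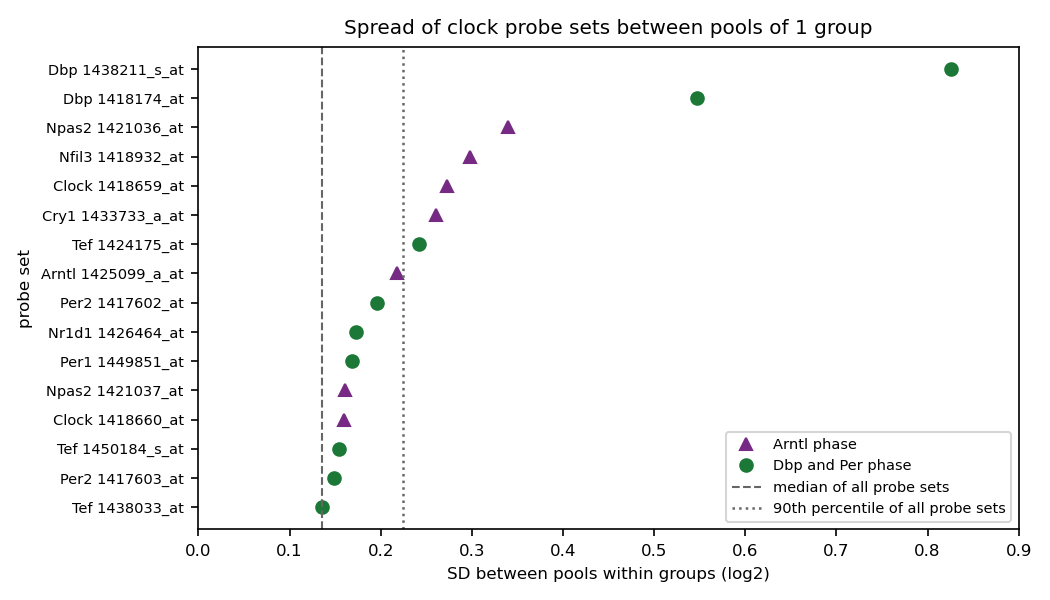
SD between pools within the 4 groups, in log2 units, for each of the 16 clock probe sets; triangles are the Arntl phase and circles the Dbp and Per phase, and the lines mark the median of all probe sets and the value that 10% of them exceed. Both Dbp probe sets stand apart, at 0.83 and 0.55.

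To compare the phases pool by pool, each gene was taken as its deviation from its 12-array mean and averaged over the 5 genes of its phase, and the Dbp and Per phase was subtracted from the Arntl phase. The phase difference was -0.02, -0.06 and -0.19 in POR-null quercetin pools 1 to 3, 0.22, -0.35 and 0.09 in POR-null control pools, 0.68, 0.41 and -0.24 in wild type quercetin pools, and -0.08, -0.03 and -0.44 in wild type control pools. Wild type quercetin pools 1 and 2 were the highest of the 12, and wild type control pool 3 was the lowest. The groups overlapped in both diet comparisons and in both genotype comparisons. Group means were -0.09 ± 0.09 in POR-null quercetin, -0.01 ± 0.30 in POR-null control, 0.28 ± 0.47 in wild type quercetin and -0.18 ± 0.23 in wild type control livers (SD, n = 3 each).

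The quercetin difference in this score was -0.08 in POR-null and 0.47 in wild type livers, beside a pooled SD between pools of 0.31. It is a description, with no test. Left without Dbp, the wild type value was 0.22, and leaving out 1 pool gave values from 0.27 (without wild type quercetin pool 1) to 0.73 (without wild type quercetin pool 3). The genotype difference was -0.37 on quercetin and 0.17 on the control diet. In POR-null livers the sign of the quercetin difference turned positive without POR-null control pool 1 (0.04) and without Cry1 and Nfil3 (0.03). It was also positive (0.06) when members below the median of all values were left out, which sets Clock alone against 4 genes of the other phase.

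The phase means lay on opposite sides of their 12-array means in 5 of 12 pools: 1 of 3 in POR-null quercetin, 1 of 3 in POR-null control, 2 of 3 in wild type quercetin and 1 of 3 in wild type control livers. Some of these lay next to 0. In POR-null quercetin pool 3 the Dbp and Per phase stood at 0.0035. In wild type control pool 1 the Arntl phase stood at -0.04 and the Dbp and Per phase at 0.03. In wild type quercetin pool 1 the Arntl phase stood at 0.24 and the Dbp and Per phase at -0.45. In wild type control pools 2 and 3 all 10 genes were above their means, with the Arntl phase at 0.35 and 0.16 and the Dbp and Per phase at 0.37 and 0.60. The phases thus moved apart in some pools and together in others.

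**Figure D4:**
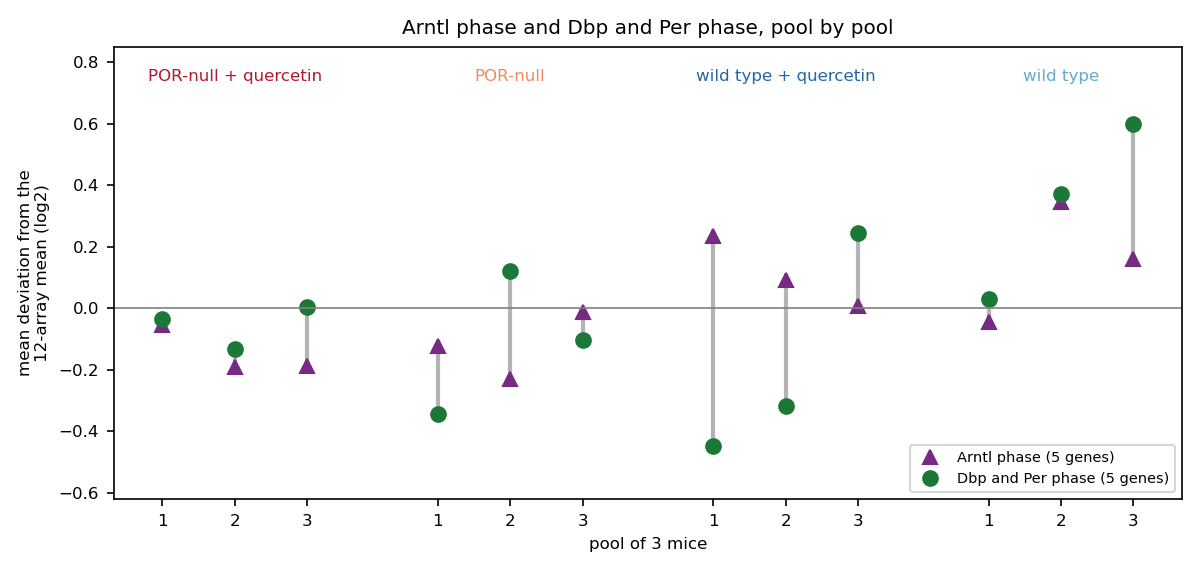
Mean deviation from the 12-array mean, in log2 units, of the 5 Arntl phase genes (triangles) and the 5 Dbp and Per phase genes (circles) in each pool of 3 mice; the grey line joins the 2 values of a pool. The widest gap is in wild type quercetin pool 1, with 0.24 against -0.45, and both phases lie above 0 in wild type control pools 2 and 3.

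Arntl was set against each of the 9 other genes over the 12 arrays, with 100000 permutations and adjustment over the 9 relations. None passed. For Arntl and Dbp, Pearson's r was -0.431 (permutation p = 0.161, adjusted 0.506) and Spearman's rho was -0.364 (permutation p = 0.247, adjusted 0.555). With each group's mean removed r was -0.40 (exact permutation p = 0.319, adjusted 0.675), and without POR-null control pool 3 and wild type quercetin pool 1, the arrays farthest from the Arntl median, it was -0.442. It was -0.14 without wild type quercetin pool 1 alone and -0.68 without POR-null control pool 3 alone. The lowest within-group r of Arntl was -0.72, with Cry1 of its own phase (exact permutation p = 0.0602, adjusted 0.285).

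Among all 45 pairs, a family chosen after the data were seen, 3 passed: Per1 with Per2 (r = 0.808, rho = 0.757), Per1 with Tef (r = 0.797, rho = 0.76) and Per2 with Tef (r = 0.781, rho = 0.86), each with an adjusted permutation p of 0.0301 for r. For rho the adjusted permutation p was 0.0538, 0.0538 and 0.0301. Without wild type control pools 2 and 3, which lay farthest from the medians of Per1 and Per2, r was 0.487, 0.58 and 0.598. Dbp and Tef had r = 0.682 (adjusted permutation p = 0.115) and rho = 0.811 (adjusted permutation p = 0.0454). Within groups no pair passed after adjustment over the 45, by an exact permutation test whose smallest possible p is 0.000772. Group means removed, Dbp and Tef had r = 0.842 (exact permutation p = 0.00386, adjusted 0.081).

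All 10 pairs inside the Dbp and Per phase had r above 0, with a median of 0.561, and with group means removed 9 of 10. Nr1d1 was the exception to the close relations there, with r between 0.0729 and 0.26. Of the 25 pairs between the phases, 20 had r above 0, with a median of 0.265, and with group means removed 11 of 25, with a median of -0.07. The highest r between the phases was that of Cry1 with Tef, 0.723 (adjusted permutation p = 0.0852), and 0.487 without POR-null quercetin pool 2 and POR-null control pool 1. The dim Cry1 probe set had r = 0.203 with Dbp and 0.485 with Nfil3 of its own phase. The points share arrays and normalization.

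**Figure D5:**
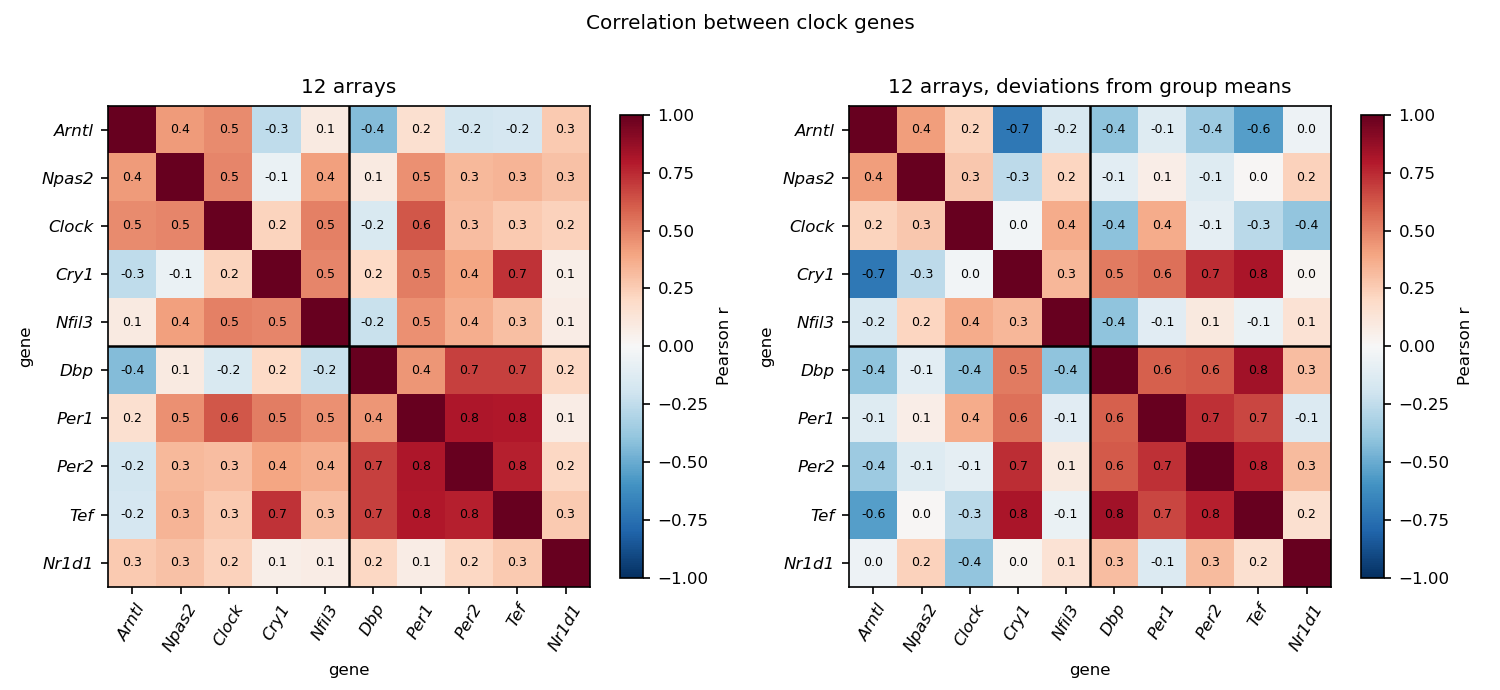
Pearson correlation between the 10 clock genes over 12 arrays (left) and over the same arrays with each group's mean removed (right); the colour scale runs from -1 to 1 and the lines part the 2 phases. Per1, Per2 and Tef form the closest block at left, with r from 0.781 to 0.808.

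Other clock genes were taken from lists, with 1 probe set per gene. Measured were 8 of 10 other loop genes and 5 of 6 kinases and ubiquitin ligases, and all 11 rhythmic output genes were measured. Quercetin called none of these 24 in limma in either genotype. In wild type livers, 2 loop genes and 5 output genes had an unadjusted p under 0.05 and were lower, and 2 output genes were higher, where 4.32% of all probe sets were lower and 4.27% higher. The output gene Nampt, whose enzyme salvages NAD, had the lowest p, with 7.56, 7.69 and 7.70 in wild type quercetin pools, against 8.27, 8.52 and 8.44 in wild type control pools. The quercetin pools lay well below, and the difference was -0.76 ± 0.12 (SE; adjusted p = 0.165). The loop repressor Bhlhe40 (DEC1) had 6.79, 7.26 and 7.59 with quercetin, against 7.75, 7.85 and 7.95 without, a difference of -0.63 ± 0.16 (adjusted p = 0.351). Its pools did not overlap. In POR-null livers Bhlhe40 differed by 0.17 ± 0.16 and Nampt by -0.16 ± 0.12. The interaction was 0.80 ± 0.22 for Bhlhe40 and 0.60 ± 0.18 for Nampt, with an adjusted p of 0.798 for both. The lowest interaction p was that of Alas1, the first enzyme of haem synthesis, at 0.89 ± 0.25 (adjusted p = 0.798). It averaged 11.11 ± 0.16 in POR-null quercetin, 10.79 ± 0.25 in POR-null control, 10.54 ± 0.20 in wild type quercetin and 11.11 ± 0.39 in wild type control livers (SD, n = 3 each). Quercetin pools of both genotypes overlapped their control pools.

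Between genotypes, the output gene Upp2, a uridine phosphorylase, rose in POR-null livers on each diet. It had 9.41, 9.51 and 9.49 in POR-null quercetin pools, against 7.28, 7.94 and 8.69 in wild type quercetin pools, and 9.18, 9.37 and 8.74 in POR-null control pools, against 7.75, 7.84 and 8.14 in wild type control pools. The POR-null pools stood above the wild type pools on both diets. The differences were 1.50 ± 0.25 on quercetin (adjusted p = 0.0082) and 1.19 ± 0.25 on the control diet (adjusted p = 0.0406). The control-diet call held in 3 of 12 fits that left out an array, and the quercetin-diet call in 12 of 12. Nampt fell by 0.55 ± 0.12 on the control diet (adjusted p = 0.048), and that call too held in 3 of 12 such fits. Avpr1a, the vasopressin receptor, fell by 0.75 ± 0.13 on quercetin (adjusted p = 0.00994), a call lost without wild type quercetin pool 1 (adjusted p = 0.0515).

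Averaged over diets, 1 of 8 loop genes, Rora, the activator that acts at ROR elements, fell in POR-null livers by 0.42 ± 0.10 (SE; adjusted p = 0.0171 in limma). It had 7.47, 7.43 and 7.48 in POR-null quercetin pools, 7.76, 7.58 and 7.98 in POR-null control pools, 8.27, 7.68 and 7.90 in wild type quercetin pools, and 8.22, 8.18 and 7.98 in wild type control pools. The POR-null quercetin pools were the 3 lowest. Of 11 output genes, 2 rose, Upp2 by 1.34 ± 0.18 (adjusted p = 0.000704) and Tubb2a, a tubulin, by 1.13 ± 0.23 (adjusted p = 0.00909), and Avpr1a fell by 0.44 ± 0.09 (adjusted p = 0.0117). Over all probe sets 4.88% were called higher and 2.7% lower. None of the 5 kinases and ligases passed, with 0 at an unadjusted p under 0.05. The list medians were -0.13 for loop genes, -0.12 for kinases and ligases and 0.00 for outputs, against -0.02 over all genes.

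Genes of 2 cues that reset the liver clock were read beside these. Among 5 glucocorticoid targets, Tsc22d3 (GILZ) fell in POR-null livers by 0.99 ± 0.17 on quercetin (adjusted p = 0.00834) and by 0.63 ± 0.12 over both diets (adjusted p = 0.00532). Pck1, which starts gluconeogenesis from oxaloacetate, fell by 0.36 ± 0.10 over both diets (adjusted p = 0.0343), a call that held in 4 of 12 fits that left out an array. Fkbp5 differed by -0.32 ± 0.11 over both diets (adjusted p = 0.0866 in limma). Sgk1, a kinase gene that glucocorticoids induce, lay higher by 0.63 ± 0.19 on the control diet (adjusted p = 0.126) and by 0.45 ± 0.13 over both diets (adjusted p = 0.0536). Over both diets 2 of the 5 targets were called lower, against 2.7% of all probe sets. Only 1 of the 5 lay above 0, where 43.2% of all genes did, and their median was -0.32, against -0.02. Of 7 temperature and heat shock genes none passed in any comparison. Their mean deviation was highest in POR-null control pool 2 (0.48) and wild type control pool 2 (0.42), and lowest in wild type quercetin pool 1 (-0.43) and POR-null control pool 1 (-0.41). Hspa1b had the widest range, 6.64 to 9.63, and so weighed most in this mean. Cirbp ran the other way, with 5.72, 5.39, 6.06 and 6.05 in these pools in turn. The mean thus joins genes that ran in opposite directions, and it is given only as a description. Wild type quercetin pool 1 and POR-null control pool 1 were also the pools with the lowest means of the Dbp and Per phase, at -0.45 and -0.34. Wild type quercetin pool 2 did not follow, with temperature genes at 0.16 and the Dbp and Per phase at -0.32, nor did pool 3 of that group, at -0.23 and 0.25. Whether temperature, corticosterone or feeding time bore on the clock values was not tested.

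The genes whose pattern was most like the phase difference were sought among 7390 other genes with a mean above the median of all values. The 5 with the lowest Pearson r over the 12 arrays, thus running with Dbp, were Fam102a (-0.868), Bhlhe40 (-0.847), Mrpl58 (-0.832), AU040320 (-0.83) and Crebrf (-0.828). The 5 with the highest were Upk2 (0.854), Cbfa2t3 (0.838), Sumo3 (0.818), Ccdc137 (0.793) and Elovl3 (0.771). Bhlhe40 followed Dbp at r = 0.846 over the 12 arrays. Elovl3, a fatty acid elongase, had 7.74, 8.84 and 8.81 in POR-null quercetin pools, 9.34, 7.90 and 8.89 in POR-null control pools, 10.50, 10.03 and 9.29 in wild type quercetin pools, and 9.27, 9.20 and 8.44 in wild type control pools. Its highest values were those of wild type quercetin pools 1 and 2, the pools in which Dbp was lowest. Dbp enters the phase difference and varied most of the members, so likeness to Dbp is partly built into this ranking. With Arntl, r of these 10 genes ran from -0.798 (Crebrf) to 0.65 (Sumo3), and it was 0.088 for Ccdc137. These likenesses were picked from many genes and are given as a description.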

How the data were processed

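Liver RNA of 12 pools was measured on Affymetrix 430A arrays, grouped by genotype and diet from the titles in the labels. The deposited values are log2 expression made by the authors, judged from their range. MAS5 and RMA are both named, per the submitters' processing notes, and which of them made the values is not given in the sources used here. The values were used as deposited. Of 22690 probe sets, 64 controls were left out.

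Group means were fitted over all 12 arrays in limma 3.58.1 (R 4.3.3), with eBayes and its intensity trend. Tests were two-sided, adjusted by Benjamini and Hochberg's method over 22626 probe sets, with calls at 0.05. SEs and intervals come from that fit. A gene with several probe sets was read from the one of highest mean unless another is named. For clock probe sets the median half-width of a 95% interval was 0.32 log2 units between single groups. Precision is limited by the 3 arrays per group, and p-values reflect the differences among pools. The fit was tested on simulated data. Correlations used two-sided permutation tests in numpy 2.4.6, and figures matplotlib 3.10.9.

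The members and lists were chosen with earlier results of these data known. The text names every member, list genes that were called, examples among those with the lowest p in a comparison, and the 5 genes at each end of the ranking by likeness. The alternatives were a filter that dropped the dimmest 40% of probe sets, quantile normalization, other variance priors, array weights, a replicate block, fits of only the groups compared, gene means and leaving out each array. Phase scores without Dbp or without Cry1 and Nfil3, and the 45 pairs, were added after seeing the data. Some listed genes are not analysed here.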

Additional observations from a re-analysis of the deposited data

How the results depend on the processing

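The number of clock probe sets called by limma was the same as reported under the dim filter, quantile normalization, other variance priors, array weights, fits of the groups compared, gene means and the replicate block, in each comparison to which they applied. Leaving out 1 array moved it from 0 to 2 for POR-null against wild type on quercetin, from 0 to 1 on the control diet, and between 0 and 2 averaged over diets, against 0, 0 and 1 with all arrays. The quercetin comparisons and the interaction stayed at 0 of 16 in each of these fits. At an unadjusted p under 0.05 their counts ran, without 1 array, from 0 to 3 in POR-null livers, 2 to 6 in wild type livers, 2 to 6 averaged over genotypes and 0 to 4 for the interaction, against 1, 4, 3 and 4 with all arrays; for POR-null against wild type they ran from 0 to 4 on quercetin, 2 to 6 on the control diet and 2 to 7 averaged, against 2, 5 and 4. Deviations of same-numbered pools correlated between -0.184 and 0.235 (median 0.0455, 5 of 18 above 0.1). Those of differently numbered pools correlated between -0.219 and 0.223 (median -0.011, 6 of 36 above 0.1). These correlations cannot decide whether pools of the same number were handled together, and this was not tested. With the replicate block Per1 averaged over diets was -0.37 (adjusted p = 0.0254), 0 probe sets were called in each other comparison, and Arntl with Dbp had r = -0.09. The Per1 call held under the 7 settings that kept all arrays (adjusted p from 0.0141 to 0.0254) and in 9 of 12 fits that left out an array. No called difference changed sign. Of the 16 probe sets, 9 had means below the median of all values.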
